A study of Mus musculus with 4 samples.

Results

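Nox1, Noxo1, Noxa1, Cyba, Duox2, Duoxa2, Nos2, Gpx1 and Gpx2 are the mucosal genes described here. They make superoxide, hydrogen peroxide or nitric oxide at the gut surface, or remove peroxide. They were taken by their mm9 gene symbol, which gave 9 of the 20833 condensed genes of the exon reference, a condensed gene being the set of RefSeq exon blocks that belong to 1 gene. All 9 were found, and all 9 passed the presence limit of over 0.01 RPKM (reads per kilobase of exon and 1000000 uniquely placed reads) and at least 2 start points in both protocols. A start point is a distinct position and strand at which reads begin. The study profiled total tissue of small intestine (jejunum) and of colon (distal colon) with SOLiD RNA-Seq. It came from untreated C57BL/6 mice aged 9 to 10 weeks, and no allele or agent set any of the groups apart. In the cDNA fragmented libraries polyadenylated RNA was copied into full-length cDNA before fragmentation, which loses the strand. In the RNA fragmented libraries, which the labels give as depleted of ribosomal RNA, the RNA itself was fragmented and the strand was kept. The study's methods describe RNA fragmented libraries of polyadenylated RNA, but with longer reads, a later sequencer and other read totals than those used here, so that description may not cover these libraries and the labels are followed. Each tissue gave 1 library in each protocol, 4 libraries in all, so there is no replicate error. The 95% intervals below cover counting error only, and no difference between tissues was tested.

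NADPH oxidases move electrons from NADPH across a membrane to oxygen. Nox1 is the catalytic subunit known from colon epithelium, which pairs with the membrane subunit Cyba (p22phox) and is switched on by the organizer Noxo1 and the activator Noxa1, whereas Duox2 makes hydrogen peroxide directly and reaches the cell surface with the help of its maturation factor Duoxa2. Nos2 is the inducible nitric oxide synthase. Gpx1 and Gpx2 are glutathione peroxidases that reduce peroxides to water or alcohols, Gpx1 in most cells and Gpx2 mainly in gut epithelium, and both carry selenocysteine, which is written in the mRNA by a UGA codon that is otherwise a stop.

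This codon was read from the mm9 genome for both peroxidases, to show how close these genes are at their catalytic site. The 30-base windows below run 5′ to 3′ on the coding strand, and the capitals mark the in-frame TGA, the only one before the stop in either reading frame. It is codon 47 of 202 in Gpx1 (chr9:108241770-108241799, plus strand) and codon 40 of 191 in Gpx2 (chr12:77896228-77896257, minus strand), in the 5′ exon block of each gene.
Gpx1: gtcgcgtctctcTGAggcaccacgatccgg
Gpx2: gtggcgtcactcTGAggaacaactacccgg
The windows share 24 of 30 bases. No 35-base window of Gpx1 came within 3 color mismatches of Gpx2, or the reverse, and the fewest was 7, so at the 3 mismatches allowed a read of one could not also match the other.

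Duox2 had windows within 3 color mismatches of its paralog. It lies on the minus strand of chromosome 2 and its paralog Duox1 on the plus strand, and their longest identical run was 162 bases. The 30 bases at its 5′ end are shown for both genes, in lower case throughout because no base differs, from exon block 6 of Duox2 (chr2:122121863-122121892) and exon block 6 of Duox1 (chr2:122145884-122145913).
Duox2: ggggcccagcgcgggaacagggagcccttt
Duox1: ggggcccagcgcgggaacagggagcccttt
Of 3466 windows of 35 bases within the exon blocks of Duox2, 973 came within 3 color mismatches of Duox1. Block 6 had 133 such windows of 133 and held 0 reads in each of the 4 libraries. No such window was found in 4 other members against a paralog: 0 of 1250 for Nox1 against Cybb, 0 of 778 for Noxo1 against Ncf1, 0 of 3072 for Nos2 against Nos3 and 0 of 1388 for Duoxa2 against Duoxa1. The closest Duoxa2 window had 4 color mismatches, so a read with mismatches of its own could still match both genes.

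In the cDNA fragmented libraries 22484041 reads of small intestine and 24798934 of colon were uniquely placed, and 2035386 and 3478387 in the RNA fragmented libraries. Region markers lay on the side of their label: the glucose transporter Slc2a2 had 9413 and 1019 reads in the small intestine libraries against 3 and 17 in colon, and the carbonic anhydrase Car1 had 1619874 and 25678 reads in colon against 0 and 68. In the cDNA fragmented small intestine library 4 Y-linked genes (Ddx3y, Eif2s3y, Uty, Kdm5d) had 0 to 19 reads and Xist 1751, whereas the cDNA fragmented colon library had 451 to 1191 and 31, and both RNA fragmented libraries had reads of all 4 Y-linked genes. Tissue and the sex of the animals therefore cannot be told apart in the cDNA fragmented pair. Of 6 pancreatic acinar markers, 5 had 325 to 5503 reads in the cDNA fragmented colon library and 481 to 1595 in the RNA fragmented small intestine library, against 0 to 3 and 2 to 8 in the other libraries (Amy2a5 had 0 in all 4). The 5 smooth muscle markers summed to 288 RPKM in small intestine and 1190 in colon by cDNA and to 221 and 2070 in the RNA fragmented libraries. In whole tissue, fewer cells of a type and less RNA per cell cannot be told apart.

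A gene was called higher in a tissue when its RPKM there was at least 3 times the RPKM plus 1 in the other tissue. By this rule 3 of the 9 genes (Nox1, Noxo1, Noxa1) were higher in colon in the cDNA fragmented libraries, where 3.20% of the 16483 genes present were. Of the 9, 2 (Nox1, Noxa1) were higher in colon in the RNA fragmented libraries, beside 6.54% of 15088 genes. Nos2 alone was higher in small intestine, in both protocols, where 2.72% of genes by cDNA and 3.71% in the RNA fragmented libraries were called. With 1 added to each RPKM, the median ratio of colon over small intestine on the log2 scale was 0.41 and 0.90 over the 9 genes, beside 0.16 and 0.30 over all genes present. Under median-of-ratios scaling, which lowers every ratio by 0.40 on the log2 scale by cDNA and by 0.34 in the RNA fragmented libraries, none of the 3 genes stayed past the 3-fold rule by cDNA (Nox1 2.64, Noxo1 2.99, Noxa1 2.94 after the penalty), while Nox1 and Noxa1 did in the RNA fragmented libraries.

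**Figure D1:**
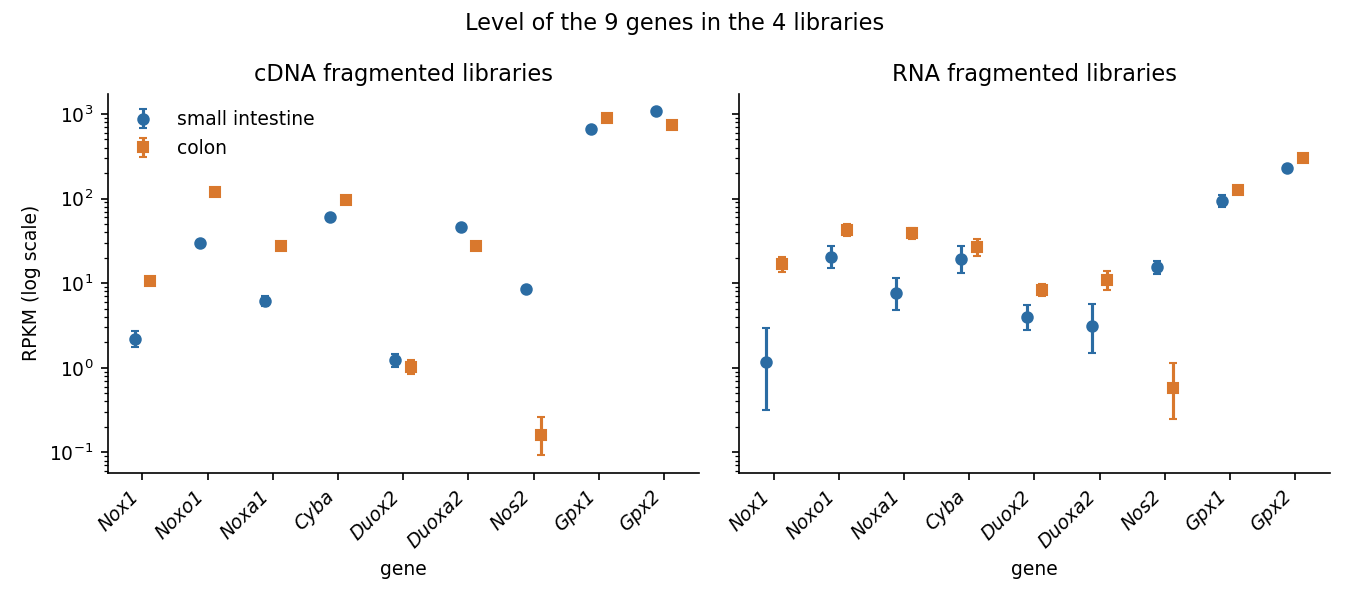
RPKM (log axis) of the 9 genes in the 4 libraries, with cDNA fragmented libraries at left and RNA fragmented libraries at right, circles for small intestine, squares for colon and bars for the 95% Poisson interval. Gpx1 and Gpx2 lie highest in each library, and Nos2 is the gene with the widest gap between tissues.

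Nox1 (chrX:130621685-130646247, minus strand, 13 exon blocks, 1692 bases) was read at 2.21 RPKM in small intestine (84 reads, 95% interval 1.76 to 2.73) and at 10.7 RPKM in colon (451 reads, 9.78 to 11.8) by cDNA. In the RNA fragmented libraries it was read at 1.16 RPKM in small intestine (4 reads, 0.316 to 2.97) and at 16.8 RPKM in colon (99 reads, 13.7 to 20.5). Colon was the higher tissue in both protocols and the intervals did not overlap. The ratio of colon to small intestine was 4.87 (3.85 to 6.22) by cDNA and 14.5 (5.48 to 54.2) in the RNA fragmented libraries, where it rests on 4 small intestine reads and ran from 9.20 with start points to 23.4 without the most-read block. The difference ran along the whole gene: by cDNA 13 of 13 exon blocks were higher in colon, 12 of them with an interval above 1, and in the RNA fragmented libraries 12 of 12 blocks with reads were, 6 with an interval above 1. The 4 and 99 reads of the strand-keeping libraries all lay on the strand of Nox1.

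Noxa1 (chr2:24941493-24950725, minus strand), the activator, was higher in colon as Nox1 was. It was read at 6.17 RPKM (206 reads) in small intestine and 27.3 RPKM (1007 reads) in colon by cDNA, and at 7.61 RPKM (23 reads) and 38.9 RPKM (201 reads) in the RNA fragmented libraries. Colon exceeded small intestine 4.43-fold (3.81 to 5.17) by cDNA and 5.11-fold (3.31 to 8.25) in the RNA fragmented libraries, and 11 of 11 exon blocks were higher in colon in each. The annotated last exon of Noxa1 (chr2:24941187-24941374) is not among these blocks, since in the exon reference it lies within a block of Entpd8, a gene of the opposite strand. In the RNA fragmented libraries this exon had 1 read on the strand of Noxa1 in small intestine and 28 in colon, a ratio of 16.4 (2.71 to 670), so the part left out was also higher in colon. By cDNA, which keeps no strand, the same stretch cannot be divided between the genes.

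Noxo1 (chr17:24835288-24837300, plus strand), the organizer, stood above Nox1 in every library. Its level was 29.8 RPKM (704 reads) in small intestine and 121 RPKM (3161 reads) in colon by cDNA, and 20.6 RPKM (44 reads) and 42.4 RPKM (155 reads) in the RNA fragmented libraries. The ratio of colon to small intestine was 4.07 (3.75 to 4.42) by cDNA but 2.06 (1.47 to 2.95) in the RNA fragmented libraries, where it missed the 3-fold rule. Counted as start points in place of reads, the cDNA ratio was 2.13 (1.92 to 2.36) and missed it too. With each start point counted at most 3 times it was 3.35 (3.08 to 3.65) and was called. By cDNA Noxo1 had 1.31 reads per start point in small intestine and 2.63 in colon, so start points rose less than reads. What raised the reads per start point in colon was not tested. All 1050 exon bases of Noxo1 are overlapped on the opposite strand by an annotated transcript of Tbl3. The strand-keeping libraries placed 44 of 44 reads in small intestine and 152 of 155 in colon on the Noxo1 strand, and Tbl3 over its own blocks reached 4.69 to 9.03 RPKM in the 4 libraries.

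Cyba (chr8:124948671-124956840, minus strand), the membrane subunit that Nox1 shares with the phagocyte oxidase, differed less between tissues. By cDNA it was read at 61.0 RPKM (1041 reads) in small intestine and 95.3 RPKM (1793 reads) in colon, and in the RNA fragmented libraries at 19.4 RPKM (30 reads) and 26.5 RPKM (70 reads). The ratio was 1.56 (1.45 to 1.69) by cDNA, and 1.37 in the RNA fragmented libraries with an interval that spans 1 (0.878 to 2.17). There the value was not stable: 91.4% of the colon reads lay in the 3′ block, and the ratio was 0.502 without that block and 2.55 with at most 1 color mismatch.

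**Figure D2:**
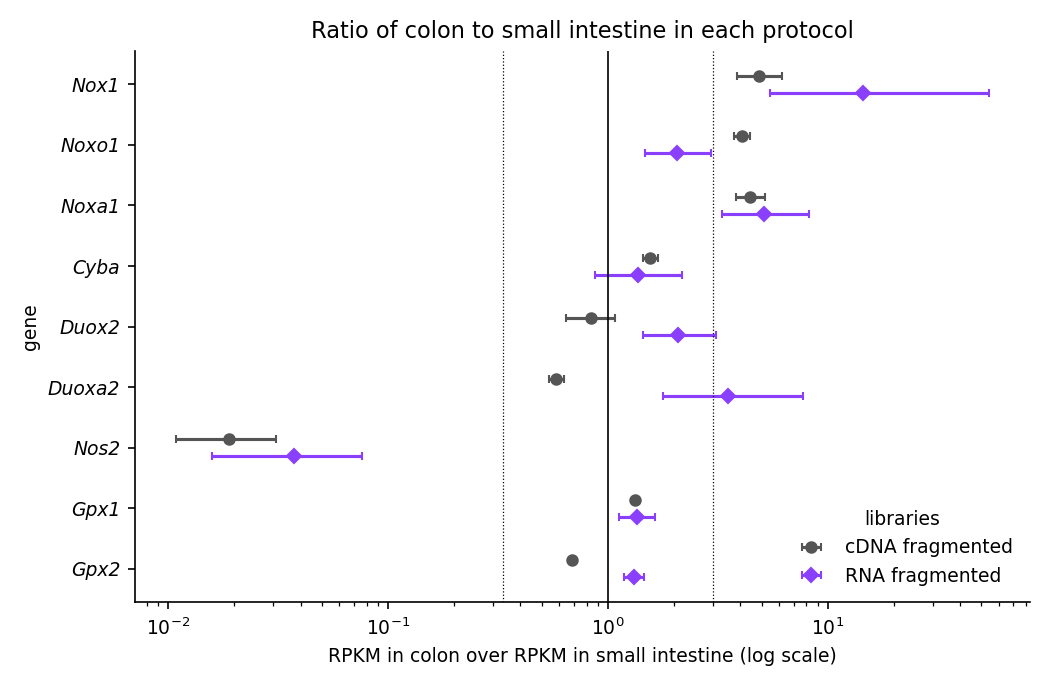
Ratio of RPKM in colon to RPKM in small intestine (log axis) of each gene, circles for cDNA fragmented and diamonds for RNA fragmented libraries, with 95% intervals of counting error, a solid line at 1 and dotted lines at 3-fold. Nox1, Noxo1 and Noxa1 lie right of 1 in both protocols and Nos2 far left, while Duoxa2 and Gpx2 lie on opposite sides of 1.

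Beside these 3 colon-high genes, the 4 colonocyte markers (Car1, Atp12a, Aqp8 and Slc26a3) were all called higher in colon in each protocol, with sums of 110 and 54150 RPKM by cDNA and 70.5 and 6714 RPKM in the RNA fragmented libraries. Of 5 smooth muscle markers, 4 were called higher in colon by cDNA (all but Des) and 4 in the RNA fragmented libraries (all but Myh11). The 6 epithelial markers went both ways, 3 with an interval above 1 and 3 below by cDNA. In the RNA fragmented libraries 2 lay above and 4 below (median log2 ratios of -0.23 by cDNA and -0.31 there). Of all genes tested, 48.2% had an interval above 1 and 21.9% below by cDNA. These shares were 36.1% and 18.2% in the RNA fragmented libraries. The part of cell make-up in the ratios of the oxidase genes was not tested. By the smallest Euclidean distance of log2(RPKM + 1) over the 4 libraries among 11062 genes, the patterns most like that of Nox1 were Copz2 (0.33), Flywch2 (0.36) and Islr (0.41).

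Duox2 (chr2:122106173-122123901, minus strand, 32 exon blocks, 4554 bases) was the lowest member in small intestine by cDNA. It was read at 1.22 RPKM (125 reads, 1.02 to 1.45) in small intestine and 1.02 RPKM (115 reads, 0.841 to 1.22) in colon by cDNA, and at 3.99 RPKM (37 reads, 2.81 to 5.50) and 8.33 RPKM (132 reads, 6.97 to 9.88) in the RNA fragmented libraries. By cDNA the tissues overlapped, with a ratio of colon to small intestine of 0.834 (0.642 to 1.08). Colon was higher in the RNA fragmented libraries, at 2.09 (1.44 to 3.09), short of the 3-fold rule. Under median-of-ratios scaling the intervals lay on opposite sides of 1, with 0.631 (0.485 to 0.819) by cDNA and 1.65 (1.14 to 2.44) in the RNA fragmented libraries.

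The protocols also differed in where along Duox2 the reads fell. By cDNA 15.2% of reads in small intestine and 14.8% in colon lay in the 5′ 50% of exon length, against 48.6% and 51.5% in the RNA fragmented libraries. The annotation extends the 3′ end 1190 bases beyond the exon reference, and reads there were not counted. Likeness to Duox1 was a further limit. The 6 blocks in which at least 50% of windows came close to Duox1 held 6, 6, 1 and 11 reads over 1029 bases (cDNA small intestine and colon, then RNA fragmented small intestine and colon), whereas the other 26 blocks held 119, 109, 36 and 121 reads over 3525 bases. Over these 26 blocks alone the ratio was 0.830 (0.634 to 1.09) by cDNA and 1.97 (1.35 to 2.94) in the RNA fragmented libraries, close to the values over all blocks. Since the records hold uniquely placed reads only, the RPKM of Duox2 over its full length may be too low in every library. Duox1 itself had 2, 8, 0 and 1 reads.

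**Figure D3:**
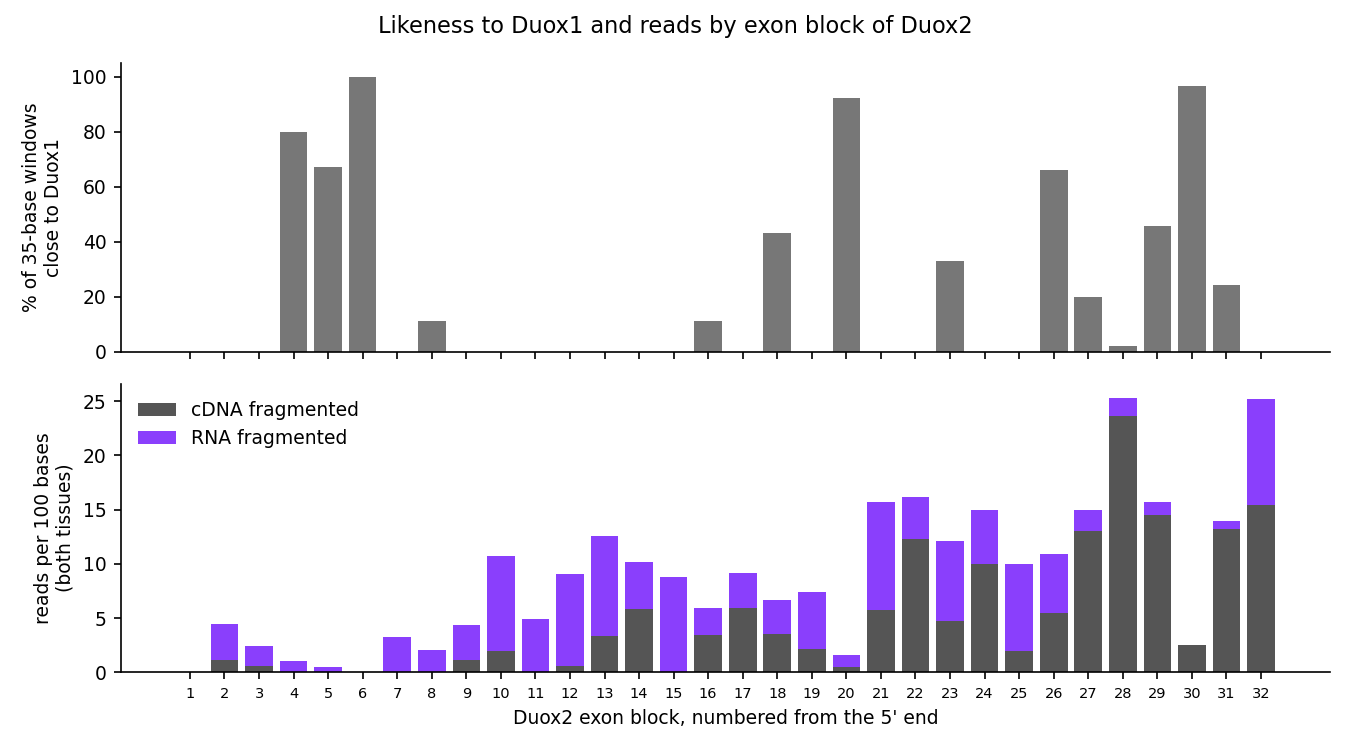
Top, percent of 35-base windows of each Duox2 exon block within 3 color mismatches of Duox1; bottom, reads per 100 bases of the block, both tissues added, dark for cDNA fragmented and purple for RNA fragmented libraries. Blocks 4, 5, 6, 20 and 30, with tall bars at the top, hold few or 0 reads, block 26, also with a tall bar, holds 7 reads by cDNA and 7 RNA fragmented reads, blocks with no such window, such as block 1 with 0, also hold few reads in places, and cDNA reads gather toward the 3′ end at right.

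Duoxa2 (chr2:122124636-122128621, plus strand) lies head to head with Duox2, with 734 bases between them. Its level was 46.6 RPKM (1668 reads, 44.4 to 48.9) in small intestine and 27.2 RPKM (1072 reads, 25.6 to 28.8) in colon by cDNA, and 3.09 RPKM (10 reads, 1.48 to 5.68) and 10.8 RPKM (60 reads, 8.27 to 13.9) in the RNA fragmented libraries. The tissue order was opposite in the protocols: small intestine was 1.72-fold higher (1.59 to 1.85) by cDNA, with 6 of 6 blocks, and colon was 3.51-fold higher (1.78 to 7.69) in the RNA fragmented libraries, with 5 of 6 blocks. The gene rests in the RNA fragmented small intestine library on 10 reads at 6 start points, in 2 of its 6 blocks, and the 682 bases of its last block are shared with another annotated coding gene. The 10 and 60 reads of the strand-keeping libraries all lay on the strand of Duoxa2. With the 1 RPKM penalty the ratio there was 2.65 and uncalled, and it passed the 3-fold rule with a penalty of 0.1 RPKM (3.40), with start points (3.64), with each start point counted at most 3 times (3.18) and without the most-read block (3.80). By cDNA the maturation factor exceeded Duox2 in level in small intestine (46.6 against 1.22 RPKM) and in colon (27.2 against 1.02 RPKM). In the RNA fragmented libraries the intervals of Duoxa2 and Duox2 overlapped in both tissues. The patterns most like that of Duox2 were Heg1 (distance 0.19), Pde3b (0.22) and Zbtb2 (0.26).

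Nos2 (chr11:78734361-78773626, plus strand, 27 exon blocks, 3990 bases) had the largest tissue ratio of the 9 genes in each protocol, although in the RNA fragmented libraries its interval overlapped that of Nox1. It was read at 8.54 RPKM (766 reads, 7.94 to 9.17) in small intestine and 0.162 RPKM (16 reads, 0.0924 to 0.263) in colon by cDNA, and at 15.4 RPKM (125 reads, 12.8 to 18.3) and 0.576 RPKM (8 reads, 0.249 to 1.14) in the RNA fragmented libraries. Small intestine was the higher tissue by 52.8-fold (32.3 to 92.9) and 26.7-fold (13.1 to 63.2). Reads in small intestine covered 27 of 27 exon blocks by cDNA and 24 of 27 in the RNA fragmented library, all 125 of the latter on the sense strand. By cDNA 27 of 27 blocks were higher in small intestine, 26 of them with an interval below 1 for colon over small intestine. The 8 reads of the RNA fragmented colon library came from 4 start points, 62.5% of them in block 2, and 8 reads lie little above the 3 that a count of 0 would allow.

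The 4 small intestine enterocyte markers found (Fabp2, Slc2a2, Lct and Apoa4) were all called higher in small intestine, as Nos2 was, in each protocol, with sums of 39126 and 4442 RPKM by cDNA and 7607 and 463 RPKM in the RNA fragmented libraries. Immune cell markers moved with Nos2 in part. The 3 T cell markers were called higher in small intestine by cDNA (57.6 against 6.16 RPKM summed), and their sum was 12.6 against 3.51 RPKM in the RNA fragmented libraries with none called. The 6 macrophage and monocyte markers summed to 118 and 125 RPKM by cDNA and to 34.7 and 61.7 RPKM in the RNA fragmented libraries, with none called. Most of the cDNA sum was Lyz2 (80.9 and 98.6 RPKM). By cDNA 4 of the 6 had an interval below 1 (Csf1r, Emr1, Itgam and Cx3cr1, ratios of 0.332 to 0.620) and 1 above. Among all genes tested by cDNA, 21.9% had an interval below 1 and 48.2% above. The median log2 ratio of the 6 was -0.62. In the RNA fragmented libraries 1 lay below and 2 above, beside 18.2% and 36.1% of all genes tested, with a median of 0.62 over the 6. The 3 B and plasma cell markers found summed to 3361 and 358 RPKM by cDNA, mostly Igj, and to 358 and 371 RPKM in the RNA fragmented libraries. Of 5 neutrophil markers found, Elane was at 0 in all 4 libraries, and S100a8, S100a9, Camp and Mpo had 0 to 7 reads. The part of any of these cells in the Nos2 ratio was not tested. Genes with the pattern most like Nos2 were Gpr155 (distance 0.32), Acot12 (0.60) and 2010001E11Rik (0.62).

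**Figure D4:**
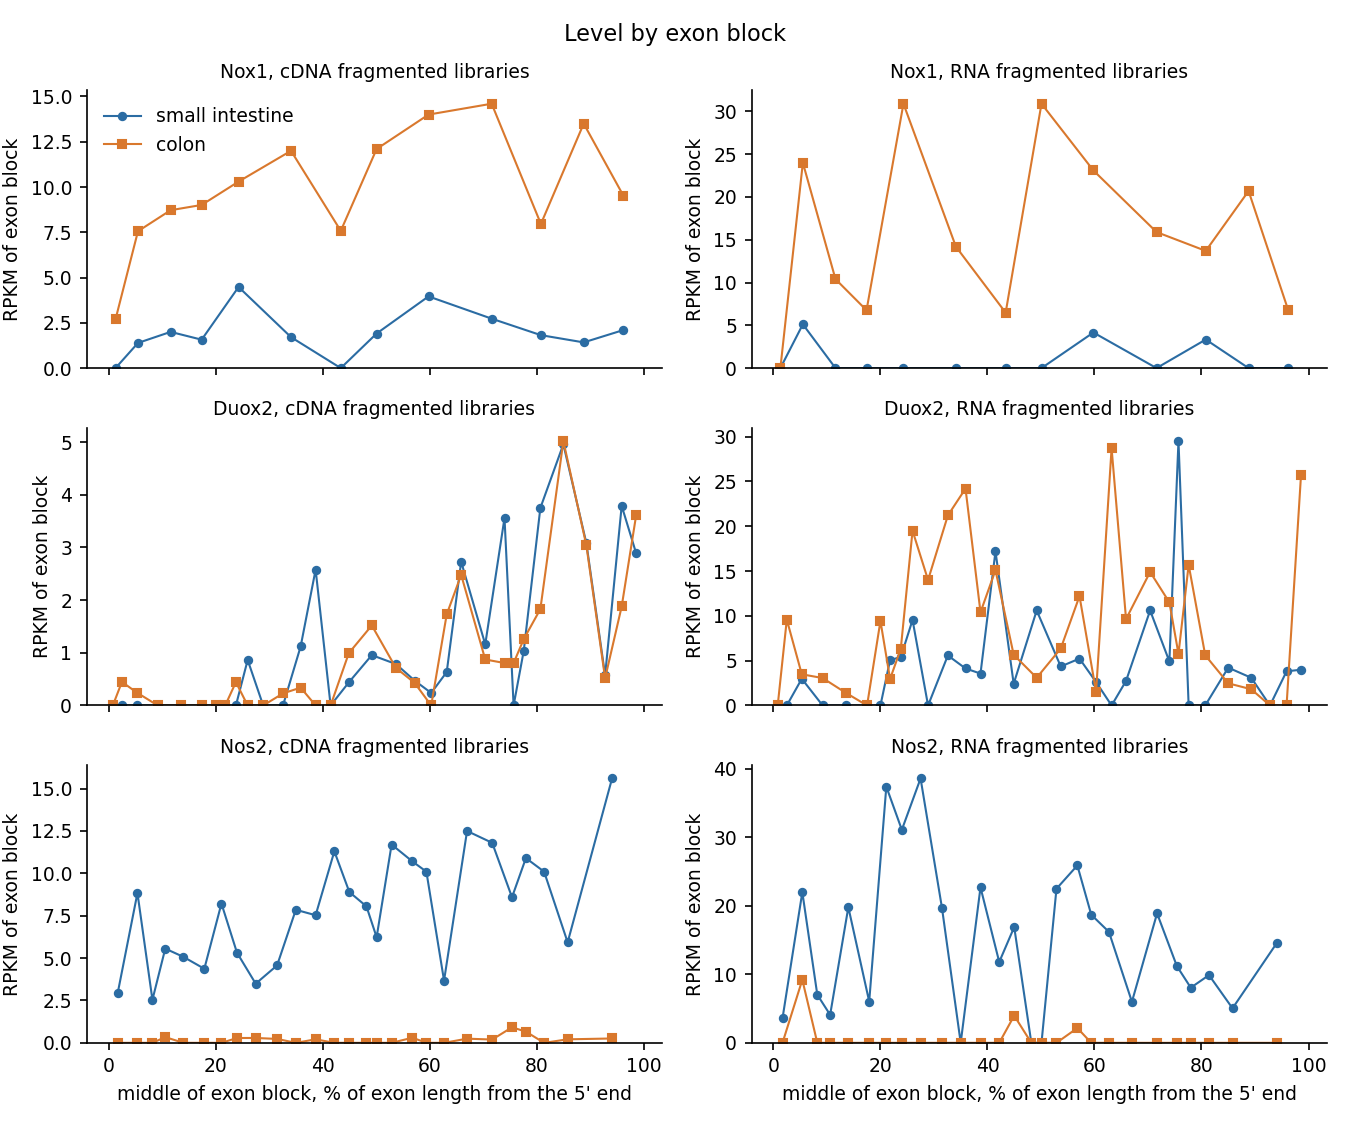
RPKM of each exon block of Nox1, Duox2 and Nos2 against its place along the exons from the 5′ end (percent of exon length), circles for small intestine and squares for colon, cDNA fragmented libraries at left and RNA fragmented at right, each panel on its own scale. Nox1 lies higher in colon and Nos2 in small intestine along the gene, and Duox2 reads by cDNA lie mostly at right.

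Gpx1 (chr9:108241607-108242671, plus strand) and Gpx2 (chr12:77893322-77896541, minus strand) were the most abundant members in each library. By cDNA Gpx1 was read at 667 RPKM (12704 reads) in small intestine and 889 RPKM (18678 reads) in colon, and in the RNA fragmented libraries at 93.4 RPKM (161 reads) and 127 RPKM (373 reads). The ratio was 1.33 (1.30 to 1.36) by cDNA and 1.36 (1.12 to 1.64) in the RNA fragmented libraries. Both exon blocks were higher in colon by cDNA (1.37 and 1.32), but in the RNA fragmented libraries block 1 had a ratio of 0.803 with an interval that spans 1 (0.533 to 1.22) and block 2 one of 1.56 (1.26 to 1.94), so the excess there rested on block 2. Gpx2 was read at 1080 RPKM (25915 reads) in small intestine and 743 RPKM (19664 reads) in colon by cDNA, and at 231 RPKM (502 reads) and 303 RPKM (1124 reads) in the RNA fragmented libraries. Its ratio of colon to small intestine was 0.688 (0.675 to 0.701) by cDNA and 1.31 (1.18 to 1.46) in the RNA fragmented libraries, so the tissue order turned with the protocol. Each of its 2 exon blocks showed the order of its protocol.

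By cDNA the Gpx1 reads fell on 1330 start points in small intestine and 1374 in colon over 847 bases, 9.55 and 13.6 reads per start point, and the Gpx2 reads on 1626 and 1563 over 1067 bases, 15.9 and 12.6 reads per start point. At that depth start points hardly add up further, which draws a cDNA ratio of start points toward 1 whatever the tissues hold. Counted as start points, the ratios of colon to small intestine were 0.987 (0.914 to 1.06) by cDNA and 0.938 (0.692 to 1.28) in the RNA fragmented libraries for Gpx1, and 0.918 (0.856 to 0.985) and 0.889 (0.699 to 1.14) for Gpx2. Under median-of-ratios scaling they were 1.01 and 1.07 for Gpx1 and 0.520 and 1.03 for Gpx2. By cDNA the Gpx2 ratio and its interval stayed below 1 under every alternative tried, with ratios of 0.520 to 0.918. Over all exon bases Gpx2 exceeded Gpx1 in 3 of 4 libraries. Gpx1 exceeded Gpx2 in the cDNA fragmented colon library (889 against 743 RPKM). The intervals, which cover counting error only, did not overlap in any library. This order depended on the exon block. In the 5′ block Gpx1 was above Gpx2 throughout, by cDNA at 559 against 489 RPKM in small intestine and 767 against 303 in colon. In the RNA fragmented libraries these values were 74.7 against 25.7 and 59.9 against 48.0 RPKM. In the 3′ block Gpx2 was above Gpx1 in each library. Cox5a (distance 0.72), Uqcrb (0.75) and Akr1a4 (0.76) had the patterns most like Gpx2.

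In order of RPKM, small intestine by cDNA ran Gpx2, Gpx1, Cyba, Duoxa2, Noxo1, Nos2, Noxa1, Nox1 and Duox2, with no overlap of intervals between neighbours. Colon by cDNA ran Gpx1, Gpx2, Noxo1, Cyba, Noxa1, Duoxa2, Nox1, Duox2 and Nos2, and only Noxa1 and Duoxa2 overlapped (27.3 and 27.2 RPKM). In the shallower RNA fragmented libraries more neighbours overlapped. For small intestine the order was Gpx2, Gpx1, Noxo1, Cyba, Nos2, Noxa1, Duox2, Duoxa2 and Nox1, where Noxo1 overlapped Cyba, Cyba overlapped Nos2, Noxa1 overlapped Duox2, Duox2 overlapped Duoxa2 and Duoxa2 overlapped Nox1. For colon it was Gpx2, Gpx1, Noxo1, Noxa1, Cyba, Nox1, Duoxa2, Duox2 and Nos2, where Noxo1 overlapped Noxa1, Nox1 overlapped Duoxa2 and Duoxa2 overlapped Duox2. Nox1 was thus below its partners Noxo1, Noxa1 and Cyba in all 4 libraries.

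Within a tissue, the level of a member differed between protocols by up to 15.1-fold. Over genes with at least 10 reads in both libraries the median ratio of RNA fragmented to cDNA RPKM was 1.51 in small intestine (10336 genes) and 1.61 in colon (12167 genes). Duox2 was above this at 3.27 (2.20 to 4.75) and 8.18 (6.32 to 10.6). Nos2 was at 1.80 (1.48 to 2.18) and 3.56 (1.32 to 8.83), the latter from 8 and 16 reads. The peroxidase Gpx1 was far below at 0.140 (0.119 to 0.164) and 0.142 (0.128 to 0.158), and Gpx2 at 0.214 (0.196 to 0.234) and 0.408 (0.383 to 0.433). Duoxa2 stood lowest in small intestine at 0.0662 (0.0317 to 0.122), with 0.4% of genes lower, and at 0.399 (0.302 to 0.518) in colon. Cyba was alike in both tissues, at 0.318 and 0.278. Nox1 was at 0.526 (0.140 to 1.40) and 1.56 (1.25 to 1.95), Noxa1 at 1.23 and 1.42, and Noxo1 at 0.690 and 0.350.

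The strand-keeping libraries placed nearly all reads of the members on the annotated strand, 100% for 7 of the 9 genes in both tissues. The exceptions were Noxo1 in colon (152 of 155) and Noxa1 (20 of 23 in small intestine, 95% Wilson interval 67.9 to 95.5%, and 200 of 201 in colon). Over all genes 98.5% and 98.4% of reads were on the sense strand. In the cDNA fragmented libraries the members ranged from 44.0 to 75.0%, the latter over the 16 Nos2 reads of colon, beside 48.3% and 48.2% over all genes.

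Other genes of the pathway were read as 46 genes in 5 lists. By cDNA 44 were present, and 2 were called higher in colon and 2 in small intestine. The median log2 ratio over the 46, present or not, was 0.06, beside 0.16 over all genes present. In the RNA fragmented libraries 41 were present, and 9 were called higher in colon and 2 in small intestine. There the median over the 46 was 0.10, beside 0.30 over all genes present. Over all genes tested, 3.20% were called higher in colon and 2.72% in small intestine by cDNA, and 6.54% and 3.71% in the RNA fragmented libraries.

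Among 10 other NADPH oxidase subunits and relatives, Cybb, the phagocyte oxidase that also uses Cyba, was higher in small intestine by cDNA (13.0 against 2.61 RPKM, 4.97-fold, 4.39 to 5.65) and uncalled in the RNA fragmented libraries (8.58 against 5.63 RPKM). Rac1, the GTPase that Nox1 needs, was the highest of the list and differed little, with ratios of 1.02 and 1.49. Rac2 had ratios of 0.466 and 1.04.

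Of 23 genes of superoxide and peroxide removal, Prdx6, a peroxiredoxin, was called higher in colon in both protocols, at 167 and 2482 RPKM by cDNA (14.9-fold, 14.5 to 15.2) and 22.7 and 85.6 RPKM in the RNA fragmented libraries (3.77-fold, 3.07 to 4.66). With start points in place of reads the ratios were 1.28 (1.21 to 1.36) and 2.10 (1.59 to 2.80), and neither was called. Neither was called with each start point counted at most 3 times (1.45 and 2.50). By cDNA Prdx6 had far more reads per start point in colon than in small intestine. That depth draws both of these cDNA ratios toward 1, so they cannot decide the cDNA call. Median-of-ratios scaling also ended the RNA fragmented call (2.97). A near-identical retrogene copy of Prdx6 exists in mouse, and the part of this copy in the reads was not tested, so they are uncertain. Gss, glutathione synthetase, had ratios of 2.86 and 3.22 and was called higher in colon in the RNA fragmented libraries. Sod3 and Gpx8 were also called higher in colon, and catalase (Cat) higher in small intestine, only in the RNA fragmented libraries by this rule. These calls did not hold under every alternative: Gss and Sod3 lost theirs under median-of-ratios scaling (ratios of 2.54 and 2.89) and with start points (1.71 and 2.45), Gpx8 with at most 1 color mismatch (3.64, 0.824 to 33.2) and Cat with start points (0.328). Gsr, which recycles the glutathione that Gpx1 and Gpx2 oxidize, had ratios of 0.401 (0.366 to 0.439) and 0.400 (0.304 to 0.525). Prdx1, the highest of the list at 3141 and 1680 RPKM by cDNA, had ratios of 0.535 and 1.09.

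The 4 genes of the Nrf2 axis, the switch of antioxidant genes, had ratios with intervals above 1 in both protocols, as had 26.3% of the 14856 genes tested in both. Hmox1, heme oxygenase, was read at 1.92 and 5.68 RPKM by cDNA (2.96-fold, 2.25 to 3.94) and had 1 and 35 reads in the RNA fragmented libraries (20.5-fold, 3.44 to 832), called in the latter. Nqo1 was called there too (3.57, 2.53 to 5.18), but not under median-of-ratios scaling (2.82) or with start points (2.61). Nfe2l2, the transcription factor, had ratios of 1.11 and 1.65, and Keap1, its inhibitor, 2.06 and 1.39. Under median-of-ratios scaling Nfe2l2 by cDNA fell below 1 (0.837, 0.810 to 0.865) and the interval of Keap1 in the RNA fragmented libraries spanned 1 (1.10, 0.869 to 1.40). With start points Nfe2l2 by cDNA was also below 1 (0.939, 0.891 to 0.989), and in the RNA fragmented libraries the intervals of Nfe2l2 and Keap1 spanned 1.

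Among 6 genes of nitric oxide and arginine, Arg2, the mitochondrial arginase that uses the same substrate as Nos2, shared its direction: 677 and 31.0 RPKM by cDNA (21.8-fold higher in small intestine, 20.3 to 23.6) and 230 and 14.7 RPKM in the RNA fragmented libraries (15.7-fold, 11.6 to 21.6). With start points in place of reads the folds were 2.84 (2.56 to 3.15), no longer called, and 7.80 (5.11 to 12.3). By cDNA Arg2 had 10.4 reads per start point in small intestine and 1.42 in colon. That depth draws the cDNA fold of start points toward 1, so it cannot decide the cDNA call. Ass1 and Arg1 were low, at most 1.48 and 2.43 RPKM, and were not called. Asl, argininosuccinate lyase, which releases arginine, was called higher in colon in the RNA fragmented libraries, at 1.93 against 11.3 RPKM from 6 and 60 reads (5.85-fold, 2.54 to 16.6), and was not called by cDNA, at 27.7 and 40.0 RPKM (1.44-fold, 1.33 to 1.57). Of 3 peroxidases of granulocytes and secretions, Lpo, lactoperoxidase, had 2 and 489 reads by cDNA and 1 and 272 in the RNA fragmented libraries, ratios of 222 (61.0 to 1836) and 159 (28.3 to 6309). Epx had 0 reads in all 4 libraries, and Mpo 3 reads in the cDNA fragmented colon library and 0 in the others.

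**Figure D5:**
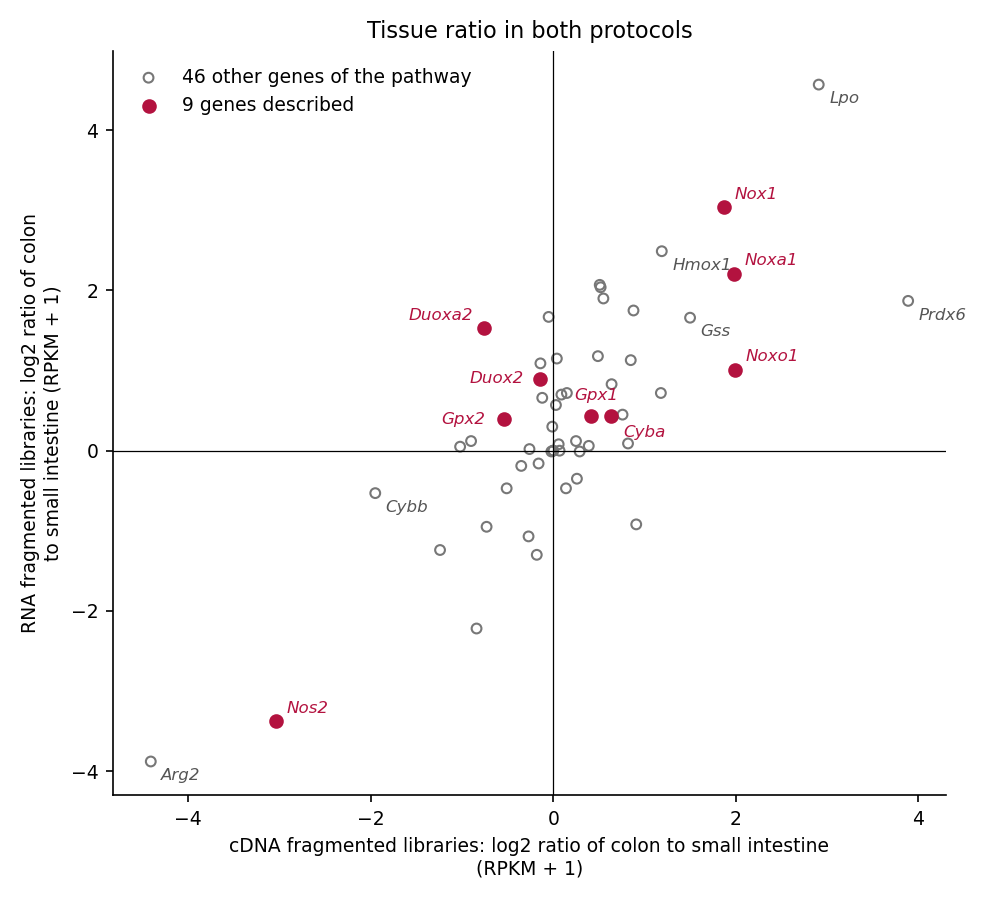
Log2 ratio of colon to small intestine (RPKM + 1) in the cDNA fragmented libraries (x axis) against that in the RNA fragmented libraries (y axis), filled points for the 9 genes and open points for 46 other genes of the pathway. Nox1, Noxa1, Noxo1, Lpo and Prdx6 lie at upper right and Nos2 and Arg2 at lower left, while Duoxa2, Gpx2 and Duox2 lie left of 0 and above 0.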

How the data were processed

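The authors deposited, for each library, 1 record per uniquely placed 35-color SOLiD read, matched with up to 3 color mismatches to an mm9 RefSeq exon reference and a junction reference, with reports of read counts and tables of exon and junction positions. The matching tool version is not given in the sources used here, and the study's genome-wide matching is a separate run. Every value here was counted from these records. Exon blocks linked by junctions were joined to condensed genes and named by GENCODE M1. Reads were assigned by their center and scaled to RPKM. Junction placements (0.754% to 0.822% of reads) were left out: 86.1% to 90.2% of them had 3 mismatches and at most 0.025% had 0, against 14.8% to 18.9% and 34.0% to 43.0% in exons. Ratios have exact conditional binomial intervals, levels Poisson intervals, strand shares Wilson intervals. The calling rule was checked on simulated counts. Sequences were read from mm9 (samtools 1.23.1), the rest with Python 3.11.15, NumPy 2.4.6 and SciPy 1.17.1. Annotated 3′ ends reached beyond the reference on the genome (Nox1 725, Noxo1 174, Noxa1 306, Duox2 1190 and Nos2 130 bases). Reads there were not counted in the levels of these genes. For Noxa1 this distance includes a gap before its last exon, whose reads are given apart. Other pathway genes were named where they had the highest RPKM of their list, or the 2 largest ratios in either direction, by cDNA with at least 10 reads, and genes most alike had at least 20 reads in each protocol. Sex-linked genes, and the pathway genes outside this rule that are named for their calls, were chosen after their values were seen. Members and lists were chosen with earlier results of these data known. 1 pathway gene counted in its list is not reported by name here.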

Additional observations from a re-analysis of the deposited data

Results flagged for a closer look

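By RPKM, Duoxa2 and Gpx2 lay on opposite sides of 1 in the 2 protocols. The ratio of colon to small intestine of Duoxa2 was 0.583 in the cDNA fragmented libraries and 3.51 in the RNA fragmented libraries, where the small intestine value came from 10 reads at 6 start points. For Gpx2 it was 0.688 and 1.31. The latter did not stay above 1 under every alternative. It was 0.889 (0.699 to 1.14) with start points and 0.987 (0.832 to 1.17) with each start point counted at most 3 times. Under median-of-ratios scaling it was 1.03 (0.929 to 1.15), while with at most 1 color mismatch it was 1.45 (1.27 to 1.66). With 1 library per tissue and protocol, the difference between protocols was not tested. Pancreatic acinar and sex-linked genes also differed between these libraries, and their part in the ratios was not tested.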

How the results depend on the processing

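No value reversed past a call, and of 144 recomputed counts 130 stayed within 1.5 times and 14 did not. Some member ratios changed side of 1: 2 of 72 by cDNA (Gpx1) and 7 of 81 in the RNA fragmented libraries (Cyba, Gpx1 and Gpx2). Under median-of-ratios scaling, 0 members were called higher in colon by cDNA (3 before), the counts of all genes higher in colon were 348 by cDNA and 631 in the RNA fragmented libraries (527 and 987 before), and 4 pathway genes were called in colon in the latter (9 before). With a penalty of 0.1 RPKM, counts of all genes higher in colon and small intestine were 1351 and 693 by cDNA and 2450 and 1066 in the RNA fragmented libraries. Start points in place of reads left 1 pathway gene called in colon and 1 in small intestine by cDNA, and 5 and 1 in the RNA fragmented libraries. Each start point counted at most 3 times left 1 (cDNA) and 5 (RNA fragmented) in colon. Such counting lowers the cDNA ratio of a gene with many reads per start point in its higher tissue, as Prdx6 and Arg2 had. Nos2 kept its call under every alternative in both protocols, and Nox1 and Noxa1 in the RNA fragmented libraries. The total without the 20 genes with most reads was added after seeing the data and changed no member's call. No paired analysis was possible by replicate number because each tissue has 1 library per protocol, and for the same reason no library could be left out within a protocol. A fit of tissue with protocol as a block, which would leave 1 residual degree of freedom, was not run. Depth limits Nox1, Noxa1, Duoxa2, Cyba and Nos2 most in the RNA fragmented libraries, where a tissue held 4 to 30 reads of them.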
